A study of Rattus norvegicus with 62 samples.

Results

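The genes described here encode the proteins of the cytosolic ribosome. They were taken as the protein-coding rows whose symbols begin with Rpl, Rps or Rplp and a digit, without the S6 kinases (Rps6k) and Rps19bp1, which share the prefix but are no ribosomal proteins. The rule found 101 genes among 40982 rows: 56 of the large subunit, 41 of the small subunit and 4 of the stalk. Of these, 29 bear symbols that mark them as like copies of another gene. Of the 101 genes, 90 passed the filter on low counts in both count tables, 6 passed in the first alone (Rpl30l1, Rpl31l1, Rpl31l2, Rpl3l, Rps15al2 and Rps17l), and 5 passed in neither (Rpl22l2, Rpl34l1, Rpl39l, Rplp0l1 and Rps15al1).

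Poly-A RNA was counted in whole L4 dorsal root ganglia of male and female rats after chronic constriction injury (CCI) of the sciatic nerve, a ligature model of neuropathic pain. Every animal carried the injury, and the ganglion of the opposite side, not that of an uninjured rat, served as control. Each side gave 6 libraries of males for the time of 24 h, 7 of each sex for the time of 1 week, and 5 of males and 6 of females for that of 5 weeks, which makes 62 libraries. The labels name no strain, and no age is used here. The male libraries of 1 and 5 weeks form the first count table and all others the second, so that sex and count table cannot be told apart at those times. Labels do not say that the libraries of males at 1 and 5 weeks came from separate animals, so p-values there measure the spread between these samples.

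A ribosome consists of a small subunit, which reads the mRNA, and a large subunit, which joins amino acids. Each subunit is a core of ribosomal RNA dressed with proteins that are usually made in equal numbers. Ribosomal protein mRNAs are known for a start in a run of pyrimidines, the terminal oligopyrimidine (TOP) tract, through which mTOR signalling controls their translation. Sensory neurons are large cells rich in ribosomes, and ribosomes and ribosomal protein mRNAs are also known in their axons.

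Annotated starts were read from RefSeq promoter sequences on the assembly GRCr8, which matched 77 of the 101 genes. Whether the transcripts begin at these annotated starts was not tested. A C at the start followed by at least 4 pyrimidines stood in 22 of the 77 (28.6%), against 2.63% of all 27457 promoters. The sequences below run 5′ to 3′ and hold the last 15 bases before the annotated start and the first 15 after it. They are shown because 6 genes with such a run, of small and large rises, can be set beside 3 paralogs without one. Capitals mark the pyrimidine run that begins at the start. Rps18 lies at chr20:4933730-4933759 on the plus strand, Rpl19 at chr10:83519049-83519078 (plus), Rps27 at chr2:177964592-177964621 (minus), Rpl22 at chr5:168117946-168117975 (plus), Rps7 at chr6:50999431-50999460 (minus) and Rps26 at chr7:1643390-1643419 (minus). The 3 without a run are Rps27l at chr8:76443643-76443672 (plus), Rpl22l1 at chr2:113683181-113683210 (plus) and Rpl7l1 at chr9:21695703-21695732 (plus).
Rps18: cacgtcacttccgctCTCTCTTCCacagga
Rpl19: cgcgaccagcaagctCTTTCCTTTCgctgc
Rps27: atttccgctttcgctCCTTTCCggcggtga
Rpl22: gtagtgcgcccccctCCCTTTCTgcctcct
Rps7: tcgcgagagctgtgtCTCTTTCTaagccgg
Rps26: gagagccgccgggtcCTCTTTCgagtcttg
Rps27l: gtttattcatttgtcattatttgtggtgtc
Rpl22l1: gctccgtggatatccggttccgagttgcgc
Rpl7l1: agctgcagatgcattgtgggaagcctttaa

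Other short words were counted on both strands of the whole window of 250 bases before to 50 bases after each start. CTTTCC, which can lie inside a pyrimidine run, stood in 44.2% of the 77 promoters and in 26.4% of all promoters. CCGGAA, a core of ETS factor sites, stood in 41.6% and 15.8%. AAGATGG, the core of YY1 sites, stood in 16.9% and 7.3%. These are matches of letters, with no measure of binding.

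The 62 libraries held 16.9 to 33.5 M counts each, and the ribosomal protein genes together took 0.736% to 1.03% of them. Levels are given as CPM, counts relative to library sizes that were scaled by TMM within a table. Reads shared between rows entered the deposited values as fractions: only 12.7% of the nonzero values of these genes were whole, against 76.5% over all genes, and 24 of the genes were fractional in every library. Many of these genes have near-identical copies and pseudogenes, so a value of a single row is less certain than the family's sum. Because whole ganglia were counted, fewer cells of a type and less RNA per cell cannot be told apart.

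Within opposite-side and injured ganglia alike, levels per kb of combined exon length differed widely between genes. Over all libraries the highest means were 406 CPM per kb for Rps29 (SD 47.1, n = 62), 376 for Rpl41 (SD 55.2), 325 for Rplp0 (SD 21.2) and 294 for Rpl19 (SD 24.8). These means span 2 tables that were scaled separately. Rps29 and Rpl41 differed by less than either SD, while Rplp0 and Rpl19 differed by more than either. The lowest were Rpl3l, Rpl30l1, Rps15al1, Rplp0l1 and Rpl34l1, all copies by symbol, at 0.209 CPM per kb or less. Rpl34l1 was at 0 in 59 of 62 libraries.

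At 24 h after injury no difference between the sides was called, and the pairs went both ways. Medians over these genes were -0.20, -0.03, 0.06, 0.11, -0.01 and 0.08 in pairs 1 to 6. In these pairs 6, 31, 65, 73, 39 and 76 genes were higher on the injured side. In males the summed share of counts had a lowest, median and highest value of 0.847%, 0.907% and 0.916% on the opposite side and 0.816%, 0.888% and 0.948% on the injured side, and the groups overlapped. By edgeR's quasi-likelihood test 0 of 90 genes were higher and 0 lower, where 8.23% and 5.9% of all genes tested were called higher and lower. At an unadjusted p under 0.05 there were 3 genes (Rps12l3, Rps24 and Rps4x), against 4803 of all 18125 genes tested. DESeq2 and limma-voom called 0 of the ribosomal protein genes. The sides were apart, with the injured one higher, for 0 genes, against 3.59% of all genes. The median log2 fold change was 0.01, from -0.14 to 0.64, and -0.01 over all genes. For Rps6, which encodes the S6 protein that S6 kinases phosphorylate, the difference of -0.00 had a 95% interval (1.96 SE on either side) of -0.07 to 0.07.

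At 1 week the same genes were higher on the injured side in males. In side comparisons, rose and fell mean higher and lower than on the opposite side. The median share at 24 h was 0.907% on the opposite and 0.888% on the injured side, so the opposite side was lower at 1 week. These times lie in different count tables. Without uninjured rats a rise on the injured side and a fall on the opposite side cannot be told apart. Their summed share had a lowest, median and highest value of 0.736%, 0.769% and 0.802% on the opposite side and 0.879%, 0.933% and 0.942% on the injured side, without overlap. Of 96 genes tested 81 rose and 1 fell, where 23.6% of all genes rose and 23.4% fell (edgeR, Benjamini-Hochberg adjusted p under 0.05). The median log2 fold change was 0.23 (1.17-fold), against 0.01 over all genes, and the called rises ran from 0.09 to 0.41. In 59 genes the libraries of the sides did not overlap, as in 11.1% of all genes in that direction. The injured side had the higher value in all 7 pairs for 74 genes, as it had for 22.3% of all genes.

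In males at 5 weeks the same number of genes was called. The summed share was 0.757% to 0.854% (median 0.811%) on the opposite side and 0.93% to 1.02% (median 0.961%) on the injured side. Again 81 of 96 genes rose and 1 fell, against 16% and 18.7% of all genes, with a median log2 fold change of 0.22 (1.16-fold; all genes -0.00). The sides did not overlap in 63 genes, against 10% of all genes.

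In females 72 of 90 genes rose and 0 fell at 1 week, against 23.9% and 21.8% of all genes, and 67 rose and 1 fell at 5 weeks, against 22.9% and 19.1%. For falls at 1 week DESeq2 and limma-voom also called 0. Medians were 0.19 at both times, and 0.01 over all genes. The summed share at 1 week was 0.778% to 0.852% (median 0.824%) on the opposite side and 0.934% to 1.03% (median 0.967%) on the injured side. At 5 weeks it was 0.789% to 0.866% (median 0.821%) and 0.897% to 0.993% (median 0.936%). Sides were separate for the sum at both times, and for 35 and 51 single genes, against 11.3% and 12.2% of all genes. In the females of 1 week the share of ribosomal RNA rows also differed between sides, 1.69% to 2.76% on the opposite side and 0.692% to 1.42% on the injured side. With that share as a covariate 34 of 90 genes rose while the median was 0.21, and this share and the side cannot be told apart in that arm. In the other 4 arms the ranges of this share overlapped between sides.

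**Figure D1:**
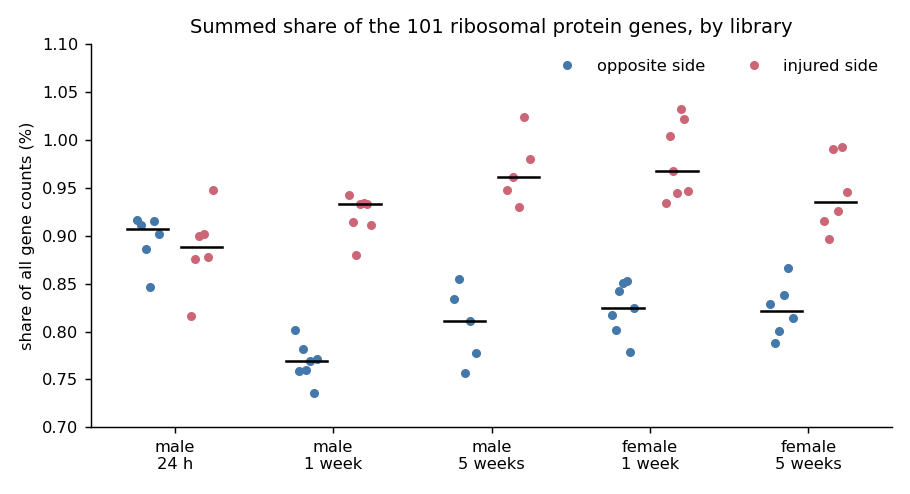
Summed share of all gene counts (%) taken by the 101 ribosomal protein genes in each library (points, blue opposite side, red injured side, black line the median of the group). The axis starts above 0. At 24 h the sides overlap, while in the 4 arms of 1 and 5 weeks all injured libraries lie above all opposite ones.

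Of the 90 genes tested in all 4 arms of 1 and 5 weeks, 64 were called higher in all 4, where 10.3% of all genes were. Another 9 were called in 3 arms, 6 in 2, 5 in 1 and 6 in none. The 6 without a rise were Rpl10l, Rpl17, Rpl22l1, Rpl7l1, Rps12l3 and Rps4y2. Rpl17, a protein of the nascent peptide exit tunnel, was estimated at 0.24 to 0.31 with standard errors of 0.14 to 0.18, several times those of most other genes. Its libraries ranged widely within groups, from 49.7 to 97.1 CPM on the opposite side of males at 1 week.

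The order of the genes by fold change was alike in arms that share no library. Between males and females at 1 week Spearman's rho was 0.807 and Pearson's r 0.852 over 87 genes with a mean log2 CPM of at least 1. At 5 weeks rho was 0.684 between the sexes. Between males at 24 h and at 1 week rho was 0.199 and r was -0.0317. The points are genes of the same libraries and share depth, scaling and reads of common copies, so these values only describe them.

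**Figure D2:**
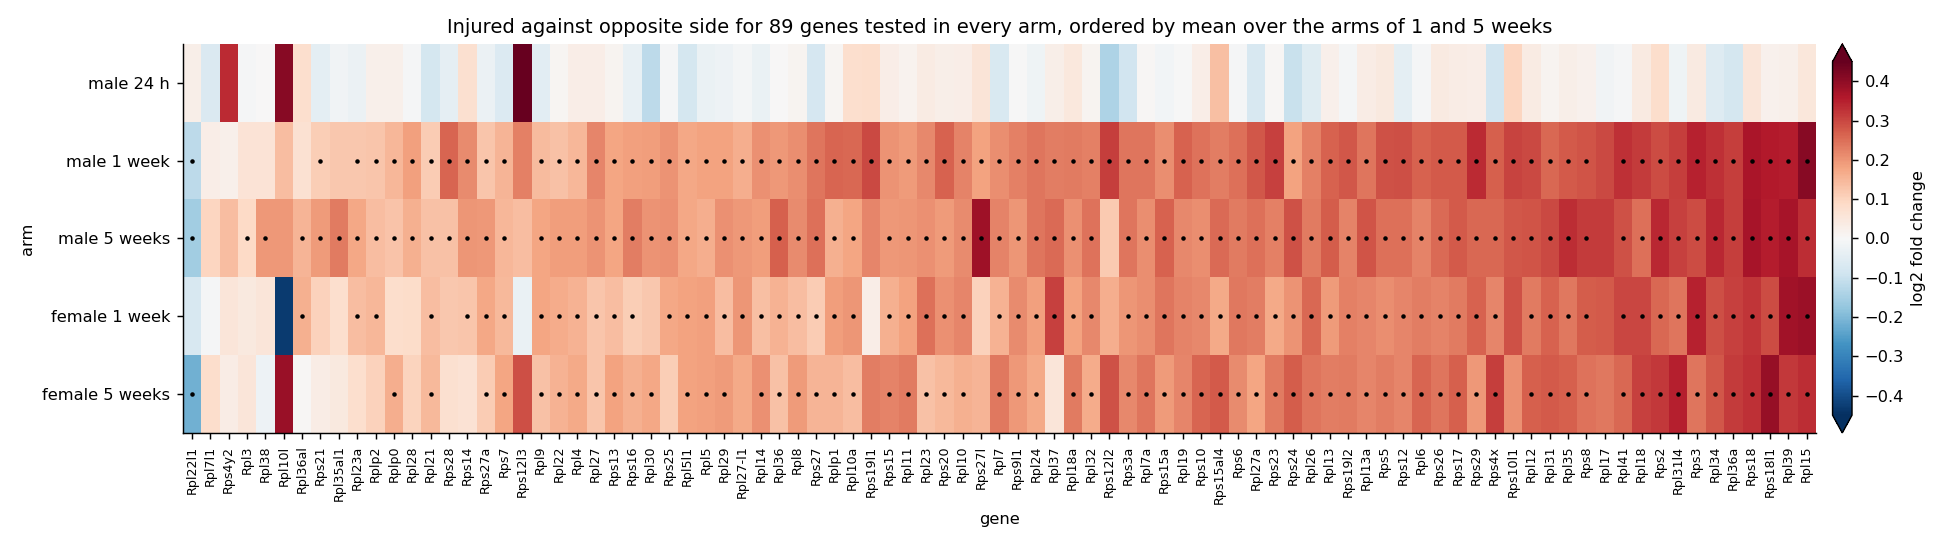
Log2 fold change, injured against opposite side, of 89 genes tested in every arm (columns, ordered by mean over the arms of 1 and 5 weeks; rows are arms; black dots mark adjusted p under 0.05). The row of 24 h has no dots, and Rpl22l1 at the left end is blue in the 4 lower rows while most columns are red.

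Rplp0 encodes the base of the stalk that recruits translation factors to the large subunit (chromosome 12, 41054363 to 41057632, 1093 nt), and Rplp1 and Rplp2 its acidic arms. On the opposite side of males at 5 weeks Rplp0 measured 352, 363, 338, 358 and 352 CPM, and on the injured side 373, 393, 374, 388 and 401. All injured values were above all opposite ones. At 1 week the male ranges were 322 to 360 (median 349) and 362 to 401 (median 387), also apart. The log2 fold changes of Rplp0 were 0.15 (SE 0.0286, adjusted p = 0.00011) and 0.13 (SE 0.0339, adjusted p = 0.00382) in males at 1 and 5 weeks. In females at 1 week its ranges overlapped, 309 to 356 and 336 to 380, and the value of 0.08 (SE 0.0395) missed the threshold (adjusted p = 0.0976). At 5 weeks it rose by 0.16 (SE 0.0428, adjusted p = 0.00219). Rplp2 rose by 0.13, 0.14 and 0.15 in males at 1 and 5 weeks and females at 1 week, and was estimated at 0.11 (adjusted p = 0.0514) in females at 5 weeks. Rplp1 rose in all 4 arms, by 0.15 to 0.26. Medians of the 3 stalk genes were 0.15, 0.14, 0.15 and 0.15 in males at 1 and 5 weeks and females at 1 and 5 weeks, beside 0.23, 0.22, 0.19 and 0.19 over all members tested. Rplp1 lay above the member median in males at 1 week (0.26), and whether stalk genes differ from other members was not tested.

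Without the like copies, 38, 40, 36 and 35 of 41 large-subunit genes rose in males at 1 and 5 weeks and females at 1 and 5 weeks, with medians of 0.23, 0.21, 0.20 and 0.19. Of 28 small-subunit genes 28, 27, 26 and 24 rose, with medians of 0.25, 0.24, 0.20 and 0.21. Like copies were set apart by symbol alone, and some of these rows were as highly expressed as other members. The sets can thus miss main genes of a subunit. Whether the subunits differ was not tested.

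Rpl15, a core protein of the large subunit (chromosome 15, 7503883 to 7507166, plus strand in mRatBN7.2, exon length 1933 nt), had the largest mean rise over the 4 arms. In males at 5 weeks it measured 95.0, 97.6, 88.2, 96.3 and 99.8 CPM on the opposite side and 111, 117, 121, 129 and 122 on the injured side. At 1 week the lowest, median and highest values were 90.9, 94.7 and 101 against 117, 129 and 136 in males, and 83.0, 96.4 and 99.4 against 109, 126 and 141 in females. No injured library fell into the opposite range in these arms. It rose by 0.41 (SE 0.0381, adjusted p = 3.12e-09) and 0.33 (SE 0.0454, adjusted p = 3e-06) in males and by 0.39 (SE 0.0508) and 0.33 (SE 0.0551) in females at 1 and 5 weeks. At 24 h its value was 0.05 (95% interval -0.06 to 0.16).

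Rps18, which lies in the head of the small subunit and is often used as a reference gene (chromosome 20, 4931427 to 4935538, plus strand, 556 nt), came close to it. On the opposite side of males at 5 weeks it measured 64.2, 69.4, 58.7, 64.1 and 62.9 CPM, and on the injured side 78.9, 81.4, 76.4, 89.3 and 86.9. In males at 1 week the lowest, median and highest were 53.7, 60.4 and 65.5 against 70.6, 77.7 and 78.9. In females at 1 week they were 60.4, 71.9 and 75.6 against 82.0, 87.6 and 92.4. All these groups were apart. Rps18 rose by 0.37 (SE 0.0431, adjusted p = 1.47e-07) and 0.37 (SE 0.0514) in males and by 0.32 (SE 0.0452) and 0.33 (SE 0.049) in females. Its row Rps18l1 on chromosome 10, which has 549 nt of exon and fractional values in 60 libraries, moved alike with 0.36, 0.36, 0.30 and 0.39.

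Rpl39, a small protein of the exit tunnel (chromosome X, 116327183 to 116330211, minus strand, 409 nt), rose by 0.35, 0.37, 0.38 and 0.32 in the same order of arms. Rps3, an mRNA entry protein of the small subunit that is also known in DNA repair (chromosome 1, 153778363 to 153783663, minus strand, 819 nt), rose by 0.35, 0.30, 0.35 and 0.24. Opposite and injured libraries were apart for both genes in all 4 arms. In males at 1 week the ranges of Rps3 were 131 to 145 and 164 to 183 CPM.

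Rps6 rose by 0.25 (SE 0.0347), 0.23 (SE 0.0412), 0.24 (SE 0.033) and 0.21 (SE 0.0358), with no overlap in any of the 4 arms. In males at 5 weeks it measured 176, 186, 164, 176 and 165 CPM on the opposite side and 195, 209, 195, 221 and 199.8 on the injured side. The reference genes Rpl13a and Rpl32 moved as well. Rpl13a, which is also known as a translational repressor, rose by 0.24, 0.28, 0.22 and 0.22, and Rpl32 by 0.23, 0.24, 0.22 and 0.17. The genes whose free proteins are known to bind Mdm2, and so to stabilise p53, were among those that rose. Rpl5 rose by 0.18, 0.16, 0.19 and 0.19, Rpl11 by 0.19, 0.20, 0.18 and 0.23, and Rpl23 by 0.22, 0.20, 0.25 and 0.13.

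A few genes had small estimates in most arms. Rpl3, which lies close to the site of peptide bond formation, measured 290.1 to 325 CPM on the opposite side and 306 to 333 on the injured side of males at 1 week, and the ranges overlapped. Its log2 fold change was 0.06 (SE 0.0294, adjusted p = 0.0851) there, 0.09 (SE 0.0349, adjusted p = 0.0475) in males at 5 weeks, and 0.04 and 0.06 in females (adjusted p = 0.218 and 0.152). Rpl38, a gene known for tissue patterning in mice, was estimated at 0.06, 0.19, 0.05 and -0.02, of which only the male value at 5 weeks passed (adjusted p = 0.0161).

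**Figure D3:**
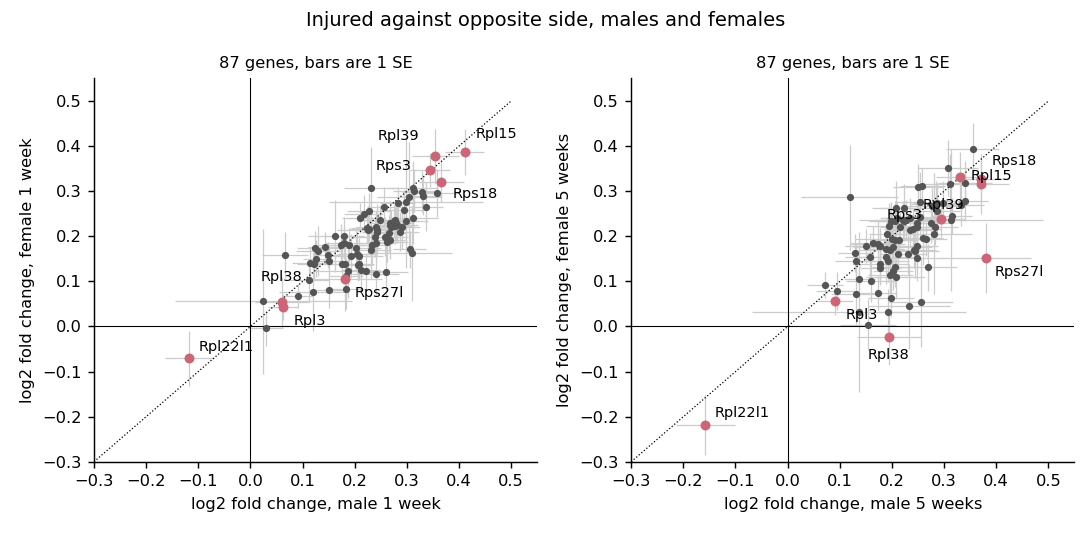
Log2 fold change of injured against opposite side in males (horizontal) and females (vertical) at 1 week (left) and 5 weeks (right), for 87 genes with a mean log2 CPM of at least 1. Bars are 1 SE, red points are named, and the dotted line marks equal values. Rpl15, Rps18 and Rpl39 lie at the upper end, and Rpl22l1 is the one named gene below 0 in both panels on both axes.

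Rpl22l1 went the other way. It encodes a paralog of Rpl22 that can take its place in the large subunit and that is known to affect splicing (chromosome 2, 111754687 to 111756623, plus strand, 566 nt). In males at 1 week its lowest, median and highest values were 22.002, 23.9 and 24.3 CPM on the opposite side and 20.6, 21.6 and 22.5 on the injured side. At 5 weeks the opposite libraries measured 24.8, 22.5, 20.7, 22.3 and 20.5 and the injured ones 18.1, 18.2, 22.1, 20.2 and 20.7. In females at 1 week the values were 24.1, 27.1 and 28.3 against 21.7, 24.3 and 28.3, and at 5 weeks 24.0, 25.5 and 26.9 against 19.8, 21.0 and 25.0. Injured libraries were the lower ones in every arm by their medians, but all 4 pairs of ranges overlapped.

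The log2 fold change of Rpl22l1 was -0.12 (SE 0.0469, adjusted p = 0.0427) in males at 1 week, lower in all 7 pairs. It was -0.16 (SE 0.0568, adjusted p = 0.0328) at 5 weeks, where 2 of 5 pairs were higher. Both male calls were lost with the pairs as a block (adjusted p = 0.055 and 0.0501), without the filter, and with TMM factors computed without these genes. The call at 1 week was also lost without opposite library 1, 3, 4, 5 or 6 or any injured library but 1, and the call at 5 weeks without opposite library 1, 2 or 4 or injured library 1, 2, 4 or 5. In females the value was -0.07 (SE 0.0606, adjusted p = 0.362) at 1 week and -0.22 (SE 0.0662, adjusted p = 0.00774) at 5 weeks, lower in all 6 pairs. The call at 5 weeks in females was kept on leaving out each library. Female minus male differences of these values were 0.04 (adjusted p = 0.938) at 1 week and -0.10 (95% interval -0.28 to 0.08) at 5 weeks.

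Its counterpart Rpl22 (chromosome 5, 162835251 to 162841977, plus strand, 456 nt) rose in all 4 arms. In males at 5 weeks it measured 16.6, 16.4, 15.2, 16.4 and 15.0 CPM on the opposite side and 18.5, 18.3, 16.2, 18.4 and 19.4 on the injured side, of which 1 lay within the opposite range. The rises were 0.13 (SE 0.0433), 0.19 (SE 0.0521), 0.17 (SE 0.0559) and 0.15 (SE 0.0611), with adjusted p from 0.00607 to 0.039. So of this pair 1 paralog rose in 4 arms, while the other was called lower in 3.

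Rps27l, a paralog of Rps27 that is known as a p53 target, stood at 0.18 (SE 0.0712, adjusted p = 0.0386) and 0.38 (SE 0.0873, adjusted p = 0.00128) in males at 1 and 5 weeks. It lies on chromosome 8 (67562483 to 67567418, plus strand, 786 nt) and had fractional values in only 4 libraries. At 5 weeks the opposite libraries measured 11.3, 11.1, 9.05, 10.8 and 9.45 CPM and the injured ones 11.7, 14.1, 14.3, 13.7 and 13.4, without overlap. The opposite side at 5 weeks was lower than at 1 week, where it ran from 10.1 to 14.2 (median 13.1), by a log2 fold change of -0.28 (SE 0.0809, adjusted p = 0.0223). That call was lost without opposite library 3 or 5 of 5 weeks (adjusted p = 0.0749 and 0.0663). Set against the opposite libraries of 1 week, the injured libraries of 5 weeks gave 0.10 (adjusted p = 0.316). In females it was 0.11 and 0.15 (adjusted p = 0.229 and 0.113).

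Rps27, a zinc finger protein of the small subunit, rose by 0.24, 0.25, 0.12 and 0.15. In males at 1 week it measured 58.5 to 67.2 CPM on the opposite side and 70.4 to 76.7 on the injured side, without overlap. The rise in females at 1 week had an adjusted p of 0.0383, and of 0.0504 with the pairs as a block.

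**Figure D4:**
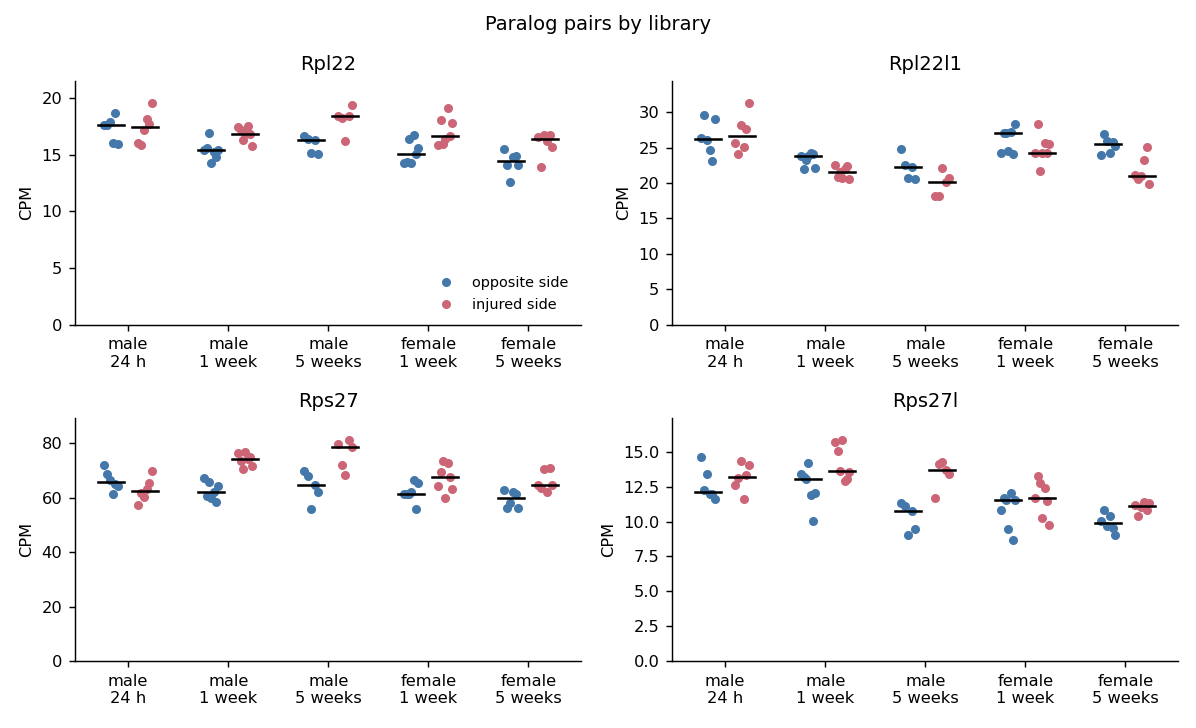
CPM of Rpl22, Rpl22l1, Rps27 and Rps27l in each library (points, blue opposite side, red injured side, black line the median of the group), axes from 0. The injured medians of Rpl22 and Rps27 lie above the opposite ones in the 4 arms of 1 and 5 weeks, and those of Rpl22l1 lie below them.

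Among the 24 like copies tested in males 12 rose and 1 fell at 1 week, and 11 rose and 1 fell at 5 weeks. Among the 18 tested in females 8 rose at 1 week, and 6 rose and 1 fell at 5 weeks. Copies were told by symbol alone, so these counts can mix main genes of a family with copies of them. Rpl36al, whose protein nearly matches that of Rpl36a, was estimated at 0.07, 0.15, 0.16 and 0.00, while Rpl36a rose by 0.31, 0.31, 0.31 and 0.32. Rpl7l1, which is known in ribosome assembly rather than in the finished ribosome, stood at 0.03, 0.09, 0.00 and 0.08, and Rpl7 rose by 0.21, 0.22, 0.16 and 0.24. Where copies, parents and pseudogene rows of 1 symbol stem were summed (76 families from 157 rows), 70, 72, 65 and 62 families rose and 0 fell in the 4 arms. At 24 h 0 of the 76 sums were called. As background for these counts and those of the other lists below, 23.6%, 16%, 23.9% and 22.9% of all genes rose in males at 1 and 5 weeks and females at 1 and 5 weeks, and 23.4%, 18.7%, 21.8% and 19.1% fell. The like copies in females at 5 weeks, 6 of 18, were thus not far from the share of all genes. Of pseudogene rows with such symbols alone, 12 of 20 rose at each time in males, and 8 and 5 of 16 in females.

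Genes with and without a pyrimidine run at the annotated start were set side by side, without a test of the difference. The classes rest on the annotation alone, so a gene without a run there may still have a TOP start. Of the 22 with a run 20, 21, 18 and 18 rose, with medians of 0.24, 0.21, 0.19 and 0.19. Of those with another start 40 and 42 of 51 rose in males, with medians of 0.23 and 0.22, and 37 and 35 of 47 in females, with medians of 0.18 and 0.19. Rpl22l1, whose printed start has no run, and Rps27l, likewise without one, went opposite ways in males at 5 weeks.

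The side difference was not shown to change from 1 to 5 weeks. In males 0 of 96 genes were called higher or lower for that change, where 0.079% and 0.132% of all genes were, and 0 had an unadjusted p under 0.05. In females 0 of 90 were called, where 7.66% and 5.88% of all genes were, and 1 (Rpl36al) had an unadjusted p under 0.05. Such a p was found for 1994 of all 18980 genes tested in males and 4667 of 18125 in females. DESeq2 and limma-voom called 0 in both sexes. For Rps18 the change was 0.00 (95% interval -0.13 to 0.14) in males and 0.01 (-0.12 to 0.14) in females.

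Females and males did not differ past the threshold either. Of 97 genes in the joint fit of both tables, 0 were called at 1 week and 0 at 5 weeks. Of all genes 0.416% were higher and 0.698% lower at 1 week, and 1.55% and 0.562% at 5 weeks. There were 4 genes at an unadjusted p under 0.05 at 1 week and 9 at 5 weeks, and each of these values was lower in females. Over all 19209 genes tested, 2175 and 2390 had such a p at 1 and 5 weeks. DESeq2 and limma-voom called 0. The median female minus male difference was -0.05 and -0.06, against 0.01 and -0.01 over all genes. It was -0.00 at 1 week with the ribosomal RNA share as a covariate and -0.00 at 5 weeks with the exon length trend removed. With the pairs as a block 1 gene was called at 5 weeks, Rpl38, at -0.26 (SE 0.0652, adjusted p = 0.0192). Without the block it was -0.25 (SE 0.0906, adjusted p = 0.156).

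Within a side, levels at 5 weeks were compared with those at 1 week. In males 24 of 96 genes rose and 1 (Rps27l) fell on the opposite side, where 7.34% and 6.2% of all genes did. On the injured side 23 rose and 0 fell, where 7.66% and 6.78% did, and DESeq2 and limma-voom called as many falls. The median difference was 0.07 on both sides. The share of ribosomal RNA rows differed as well, 4.11% to 5.99% at 1 week and 3.06% to 3.74% at 5 weeks on the opposite side. With that share as a covariate 14 genes rose on the opposite side, while the median difference was 0.15 there and 0.13 on the injured side. Without injured library 4 of 5 weeks 12 rose on the injured side, and without opposite library 4 or 6 of 1 week 15 and 14 rose on the opposite side.

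The symbol Rpl37 names a small zinc-binding protein of the large subunit. Its row (chromosome 10, 61033799 to 61034157, plus strand, 359 nt) had the largest rise after Rps17l, a like copy estimated at 0.96 and 0.90 on the opposite and injured side. Rps17l lay near the floor, at a mean of 0.757 CPM on the opposite side of males at 5 weeks. The Rpl37 row spans no more bases than its exon length, averaged 6.49 CPM and held fractional values in 61 libraries. Whether its reads came from this row or from near-identical copies was not tested. On the opposite side its male libraries had a lowest, median and highest value of 6.69, 7.36 and 7.92 CPM at 1 week and measured 9.50, 10.04, 8.75, 9.89 and 9.12 at 5 weeks. On the injured side they ran from 8.06 to 9.38 and then measured 10.8, 12.1, 10.3, 12.4 and 10.9. The weeks did not overlap on either side. The rises were 0.36 (SE 0.0576, adjusted p = 0.000219) and 0.39 (SE 0.0563, adjusted p = 7.6e-05). Rps28 rose by 0.35 and 0.22, Rpl32 by 0.23 and 0.25, and Rps29 by 0.25 and 0.17, on the opposite and the injured side.

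In females 0 genes rose with time on either side. On the opposite side 2 fell (Rpl30 and Rpl11) and on the injured side 3 (Rpl30, Rpl22l1 and Rpl39), where 7.55% and 8.54% of all genes fell and 3.13% and 8.74% rose. At an unadjusted p under 0.05 there were 5 and 11 genes in either direction, against 4285 and 5397 of all 18125 genes tested. Rpl30, a protein that regulates its own expression in yeast (chromosome 7, 65648470 to 65651363, minus strand, 464 nt), measured 60.4 to 70.3 CPM (median 63.4) on the opposite side at 1 week and 51.1 to 63.8 (median 52.4) at 5 weeks. The ranges met through 1 library of 5 weeks. It fell by 0.24 (SE 0.0613, adjusted p = 0.00703), and by 0.19 (SE 0.0609, adjusted p = 0.0256) on the injured side. Without single libraries between 1 and 3 genes fell on the opposite side and between 0 and 5 on the injured side. The latter count was 0 without injured library 2 or 5 of 1 week or 1 or 2 of 5 weeks, 1 without library 6 of 1 week or 4 of 5 weeks, and 5 without library 4 of 1 week. The former was 1 without opposite library 4 or 5 of 1 week or 2 or 3 of 5 weeks.

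Other ribosome components lie outside the symbol rule. Rpsa, Fau and Rack1, which encode a laminin receptor homologue, an S30 fusion and a kinase scaffold, all of the small subunit, rose in males at both times and in females at 1 week, by 0.15 to 0.31. In females at 5 weeks Rpsa and Rack1 rose by 0.27 and 0.24, and Fau stood at 0.08 (adjusted p = 0.179). At 24 h their values were -0.00, 0.05 and -0.00 for Rpsa, Fau and Rack1, and none of these 3 was called.

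Other genes whose mRNAs are known for TOP starts, many but not all of them translation factors, moved in the same direction. Of 17 tested, 1 rose at 24 h, 12 and 11 in males at 1 and 5 weeks, and 14 and 9 in females, and none was called lower in the 5 arms. Of all genes 8.23% rose at 24 h and 23.6%, 16%, 23.9% and 22.9% in the later arms. Eef1a1, the main tRNA-delivering elongation factor, rose by 0.49 (SE 0.043), 0.44, 0.43 and 0.55, and Pabpc1, the poly-A binding protein, by 0.55, 0.38, 0.54 and 0.45. Medians were 0.02 at 24 h and then 0.16, 0.17, 0.21 and 0.14.

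Of 30 genes of ribosome assembly 10 rose and 0 fell at 24 h, where 8.23% and 5.9% of all genes did, with a median of 0.14. Nop56, a box C/D snoRNP core protein, rose by 0.40 (SE 0.0514, adjusted p = 2.66e-07), Rrp12, a factor of pre-ribosome export, by 0.61 and Rrp9, a U3 snoRNP protein, by 0.35. At 1 and 5 weeks 13 and 9 rose in males (2 and 3 fell) and 16 and 6 in females (1 and 2 fell). The 6 of 30 in females at 5 weeks lay below the 22.9% of all genes. Of 14 RNA polymerase I genes 3, 2, 2, 5 and 3 rose in the 5 arms, with Polr1g at 1.16, 1.09, 0.95, 1.39 and 0.77. The 2 of 14 in males at each later time lay below the 23.6% and 16% of all genes, and the 3 of 14 in females at 5 weeks below the 22.9%. Myc, a transcription factor known to drive these genes, rose by 1.21 (SE 0.112) at 24 h and by 0.88, 0.80, 0.89 and 0.56 afterwards. Of the 21 genes of mTOR and translational control, a list that also holds Myc and Mycn, 4 rose at 24 h (Eif4e, Sesn2, Myc and Mycn). Later 7, 5, 8 and 7 rose and 6, 7, 5 and 4 fell. These later counts are not shown to differ from the shares of all genes, 23.6%, 16%, 23.9% and 22.9% for rises and 23.4%, 18.7%, 21.8% and 19.1% for falls. Eif4ebp1, the translation repressor that mTOR inactivates, rose by 0.68, 0.48, 0.37 and 0.67, and Rps6kb1, which encodes an S6 kinase, fell by 0.28, 0.27, 0.24 and 0.17.

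Proteins of the mitochondrial ribosome, a separate machine, did not share the rise. Of 76 genes 1 rose and 37 fell in males at 1 week, and 4 rose and 15 fell at 5 weeks. Of 75 in females 2 rose and 17 fell at 1 week, and 0 rose and 36 fell at 5 weeks. Of all genes 23.4% and 18.7% fell in males and 21.8% and 19.1% in females, so that the falls in males at 5 weeks and females at 1 week were near the share of all genes. The list was made by symbol, which does not show that each protein belongs to that ribosome. Mrps15 and Mrps5 fell in all 4 arms. Medians were 0.00 at 24 h and then -0.13, -0.08, -0.05 and -0.14.

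**Figure D5:**
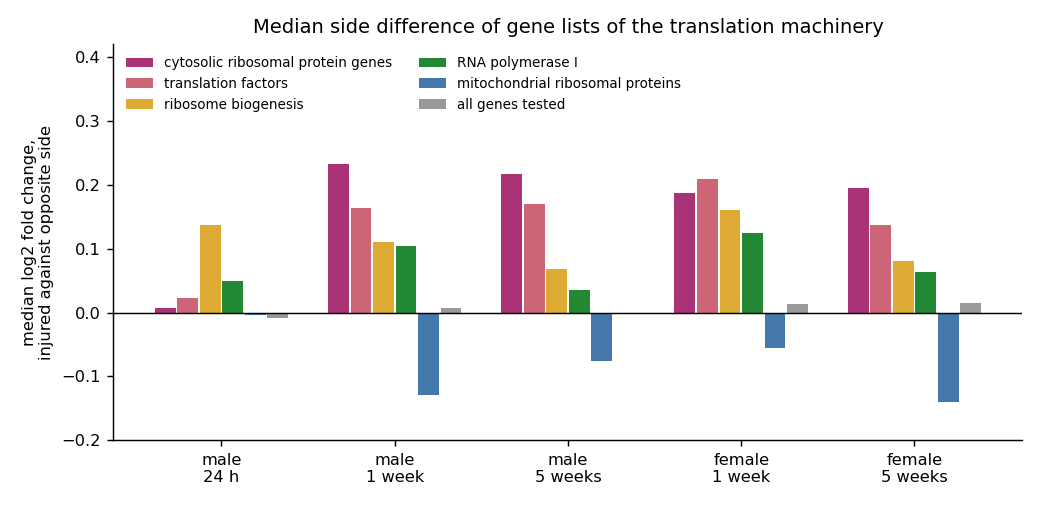
Median log2 fold change of injured against opposite side (vertical axis) in the 5 arms for the cytosolic ribosomal protein genes, 4 other lists of the translation machinery and all genes tested. The list drawn as translation factors also holds other genes known for TOP mRNAs. At 24 h the tallest bar is that of ribosome biogenesis at 0.14, and at 1 and 5 weeks the mitochondrial list lies below 0 while the other 4 lists lie above it.

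Exon length was examined as well. The median exon length was 648 nt for these genes and 3218 nt for all genes tested in the first table. Other coding genes under 1000 nt had medians of 0.08, 0.05, 0.06 and 0.00 in the 4 arms, and those of them at a mean log2 CPM of at least 6 had 0.00, -0.02, 0.02 and -0.08. With a trend in exon length removed, 66, 62, 56 and 65 ribosomal protein genes rose, with medians of 0.15, 0.15, 0.12 and 0.18 in place of 0.23, 0.22, 0.19 and 0.19.

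Of 10 neuron markers 7, 6, 7 and 6 fell in males and females at 1 and 5 weeks, and of 12 macrophage markers 10, 4, 10 and 10 rose, with 1 lower in males at 5 weeks. Of all genes 23.4%, 18.7%, 21.8% and 19.1% fell and 23.6%, 16%, 23.9% and 22.9% rose in these arms. In males at 1 week the summed neuron markers were 33782 to 36586 CPM on the opposite side and 21682 to 29313 on the injured side, and the macrophage markers 126 to 304 and 309 to 854. In males at 5 weeks the macrophage sums were 268 to 340.1 (median 322) and 315 to 599 (median 489), with ranges that overlapped. Of 6 myelin markers 6, 1, 6 and 2 fell. All 10 erythrocyte markers rose in males at 1 week and 0 of 10 in the other 3 arms. Summed lymphocyte markers had medians of 26.4 and 50.1 CPM on the opposite and injured side in males at 1 week, 35.3 and 46.4 at 5 weeks, 17.1 and 31.2 in females at 1 week and 15.9 and 35.3 at 5 weeks. Of the 9 tested in males 5 rose at 1 week and 0 at 5 weeks, and of the 7 tested in females 1 rose at each time. Summed fibroblast markers had medians of 3312 and 2299 CPM in females at 1 week and 1211 and 2028 at 5 weeks, where 4 of 6 rose. No neuron, macrophage, myelin, lymphocyte or fibroblast marker was at 0 throughout a group. The part of these cells in the rise of the ribosomal protein genes was not tested.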

How the data were processed

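Both tables hold estimated counts per gene as deposited, not normalized, for 40982 rows each. Reads shared between features had been split, since values are fractional. The libraries were stranded poly-A libraries per the labels' protocols. Per the submitters' processing notes, bcl2fastq 2.20.0.422, cutadapt 2.5, STAR 2.7.2b, featureCounts 1.6.4 and the build mRatBN7.2 were used, with no roles given. How strand was handled is not given in the sources used here.

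The design had assumed whole counts, and the estimated counts were rounded. Each table (24 and 38 libraries) was filtered with filterByExpr (minimum count 10) and then scaled by TMM. It was fitted over all groups with edgeR 4.0.16 (robust quasi-likelihood) in R 4.3.3, without the pairs of sides. Female minus male differences came from a joint fit. Values of p were adjusted by Benjamini-Hochberg over all genes, with a threshold of 0.05. Intervals are 1.96 SE on either side. DESeq2 1.42.0 and limma-voom (limma 3.58.1) were alternatives, beside other scalings, filters, covariates, a replicate block and leaving out libraries. Scripts were tested on simulated data. Figures were drawn in Python 3.11.15 with matplotlib 3.10.9.

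Replicate numbers pair the sides. In the second table both sides carry the same animal codes, and in males at 1 and 5 weeks deviations of same-numbered libraries correlated in every pair, at 0.261 and 0.263 or more. Such correlations were weaker at 24 h, at 0.0661 to 0.477, and in females at 1 week, at 0.088 to 0.42. The own number was the best match in 4 of 6 pairs at 24 h and in 6 of 7 in females at 1 week.

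Members and lists were chosen with earlier results of these data known. Genes named are, per comparison, the 4 largest changes in each direction past the threshold at a mean log2 CPM of at least 1, stalk, p53-axis and reference genes with Rps6, paralogs with their parents, the 5 highest and 5 lowest levels per length, and the 3 smallest p-values of each interaction. Other names were chosen after their values were seen. The symbols Rps9, Rps19, Rpl35a and Rpl37a are not analysed here, and single values of a few other genes are not reported here.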

Additional observations from a re-analysis of the deposited data

Results flagged for a closer look

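Of 220 groups of libraries examined for a single distant library among the named genes, 12 had one, and chance gives about 1 in 20. Among males at 1 week, opposite library 6 was low for Rplp0 (322.3 CPM, others 343.8 to 359.6), Rplp1 (102.8, others 117.4 to 124.2) and Rpl30 (44.97, others 54.53 to 60.53). Its injured partner was low for Rpl30 as well, at 53.16 CPM against 61.77 to 68.15. Injured library 3 of the same time was low for Rps18, at 70.56 CPM against 76.58 to 78.85.

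In males at 5 weeks injured library 4 was low for Rpl30 (58.76 CPM, others 67.41 to 70.67) and opposite library 3 was low for Rpl3 (290.1 CPM, others 319.7 to 330.9). At 24 h opposite library 4 was low for Rpl3, at 290.0 CPM against 316.9 to 328.8. In females opposite library 7 of 1 week was low for Rpl15 (82.96 CPM, others 92.66 to 99.35), and injured library 2 of 5 weeks was low for Rpl22 (13.95 CPM, others 15.73 to 16.78). At 5 weeks, library 5 was high for Rps28 on the injured side (41.95 CPM, others 35.02 to 36.77) and for Rpl30 on the opposite side (63.76 CPM, others 51.14 to 52.72).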

How the results depend on the processing

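Counts of genes higher on the injured side ran over the settings from 66 to 82 (males, 1 week), 62 to 84 (males, 5 weeks), 34 to 75 (females, 1 week) and 62 to 69 (females, 5 weeks), and on leaving out single libraries from 78 to 82, 75 to 82, 67 to 76 and 59 to 68. The lowest count, 34 in females at 1 week, came with the ribosomal RNA share as a covariate. With the exon length trend removed, 5 genes fell at 24 h and 1 in females at 1 week, and with time 3 rose and 0 fell on the female injured side, 2 fell on the male injured side and 4 fell on the male opposite side. With the ribosomal RNA share as a covariate, 14 rose and 0 fell with time on the male opposite side and 0 fell on the female injured side. Without a filter, 13 rose on the male opposite side and 1 fell on the female injured side, and with the stricter filter 6 fell there. With only the groups compared, 1 rose on the female injured side. The fall in males at 1 week became 0 without a filter, with the replicate block, with stem sums (a setting chosen after seeing the data), with the stricter filter and with TMM factors computed without these genes. That at 5 weeks became 0 without a filter, with only the groups compared, with the replicate block, without ribosomal RNA rows, with stem sums and with such TMM factors, and the female fall at 5 weeks became 0 with stem sums. With the replicate block 82, 83, 72 and 69 genes rose in the 4 arms of 1 and 5 weeks and 1 was lower in females than in males at 5 weeks. The block lost Rpl27-l1 in females at 1 week (adjusted p = 0.0704) and gained Rpl30 (0.0198) and Rps10l1 (0.000779) there, Rps10l1 in females at 5 weeks (0.0224) and Rpl7l1 in males at 5 weeks (0.0462). Leaving out single libraries gave 0 to 1 falls in males at 1 week and at 5 weeks, 0 to 1 rises (1 without injured library 1 or 4) and 0 to 1 falls (1 without injured library 6) at 24 h, 12 to 28 rises on the male injured side, 14 to 31 rises and 0 to 1 falls on the male opposite side, 0 to 5 falls on the female injured side and 1 to 3 on the female opposite side. Against the opposite libraries of the other week the direction turned for Rpl30 in females at 5 weeks (-0.0687) and for Rpl32 (-0.00687), Rpl37 (-0.13), Rps17l (-0.72) and Rps28 (-0.0853) in males at 1 week. With the exon length trend removed it turned for Rps21 in males at 1 week (-0.0196). Apart from shown covariates the cause was not tested. Joint fits left out both sides of a number at once. Depth of 16.9 to 33.5 M counts limits the copies with few counts most, and splitting of shared reads limits single rows.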
